A study of Mus musculus with 2 samples.

Results

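Kupffer cells, the macrophages that live in the liver sinusoids, carry a set of surface receptors with which they clear particles, haemoglobin, dying cells and complement-coated microbes from the blood. The 10 genes described here encode 8 such receptors, namely Cd163, Marco, Timd4, Vsig4, Folr2, Clec4f, Cd207 and Clec1b, and 2 secreted recognition proteins, Cd5l and Fcna. They were taken as a list of resident Kupffer cell genes, partly chosen by their signal on these arrays, and every probe set that the platform annotation assigns to 1 of them alone was used, which gave 11 of the 45101 probe sets of the array. Marco had 2 probe sets and each of the other 9 genes had 1. Cd163, Marco and Timd4 were on the list because they had been selected on a signal in the knockout array alone, so their differences are given as a description and support nothing.

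Precancerous liver tissue was compared between mice labelled Pik3caTg;Kdm3aKO and Pik3caTg;Kdm3aWT, with 1 Affymetrix expression array of each. Both genotypes carried the hepatocyte-specific Pik3ca transgene, which activates phosphoinositide 3-kinase signalling, and they differed in Kdm3a, which encodes a histone H3 lysine 9 demethylase. Age, strain, the promoter of the transgene, the cells that lack Kdm3a and the number of animals behind each array are not stated in the sources used here. The comparison addresses how liver under this signalling differs, before tumours form, when Kdm3a is missing. No transgene-free liver was compared.

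In mouse liver, resident Kupffer cells are seeded before birth and maintain themselves locally, and TIM-4, CLEC4F and VSIG4 are their usual markers. When Kupffer cells are lost, monocytes enter and take on CLEC4F before they take on TIM-4, so the genes of the set mark different stages of residence. Macrophages drawn in by fat, injury or tumours instead carry genes such as Trem2 and Gpnmb.

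A single array per genotype allows neither a test nor an error between animals, and every value describes these 2 arrays. Values are MAS5 signals on a linear scale, and differences are ratios of knockout over wild type. Signals below 46.5, the 40th percentile of all values, were raised to that floor, and a ratio with such a value is a bound, written "at least". Genes were compared if their mean signal over both arrays reached 73.7, the median of such means, which left 11693 genes. Kdm3a itself had a signal of 61.6 in the knockout array and 719.9 in the wild-type array, read by 1 probe set whose place relative to the deleted part is not known here. All 13 measured hepatocyte markers, among them Alb and Apoa1, were above the floor on both arrays. Their ratios were positive in 13 of 13 cases, with a median log2 ratio of 0.49 and summed signals of 613819 in the knockout array and 442978 in the wild-type array, and 2 were past 2-fold, Tat at 1.22 and Hpd with 50886 in the knockout array and 25381 in the wild-type array.

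The set divided into genes found in the knockout array alone, genes found in both arrays at similar or somewhat higher knockout signal, and 1 gene found in the wild-type array alone. Cd163, Marco and Timd4 were above the floor in the knockout array and below it in the wild-type array. Fcna, Vsig4, Clec4f, Folr2, Clec1b and Cd5l were above the floor in both. Cd207 was above the floor in the wild-type array and below it in the knockout array. At a size of at least 2-fold, 4 of the 10 genes were higher in the knockout array and 1 was lower, against 3.83% higher and 8.96% lower among all 11693 genes. With scaling on the poly-A controls these shares were 6.05% and 6.63%. Genes past 2-fold with a floored wild-type value alone made up 0.419% of all genes, and those with a floored knockout value alone 1.1%. Nothing is read from that count, since 3 of the 4 higher genes were chosen for this difference and every gene that passes this filter with 1 value below the floor must lie past 2-fold. All 11 probe sets passed the filter, those of Cd163, Marco and Timd4 through their knockout signal alone and that of Cd207 through its wild-type signal alone.

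**Figure D1:**
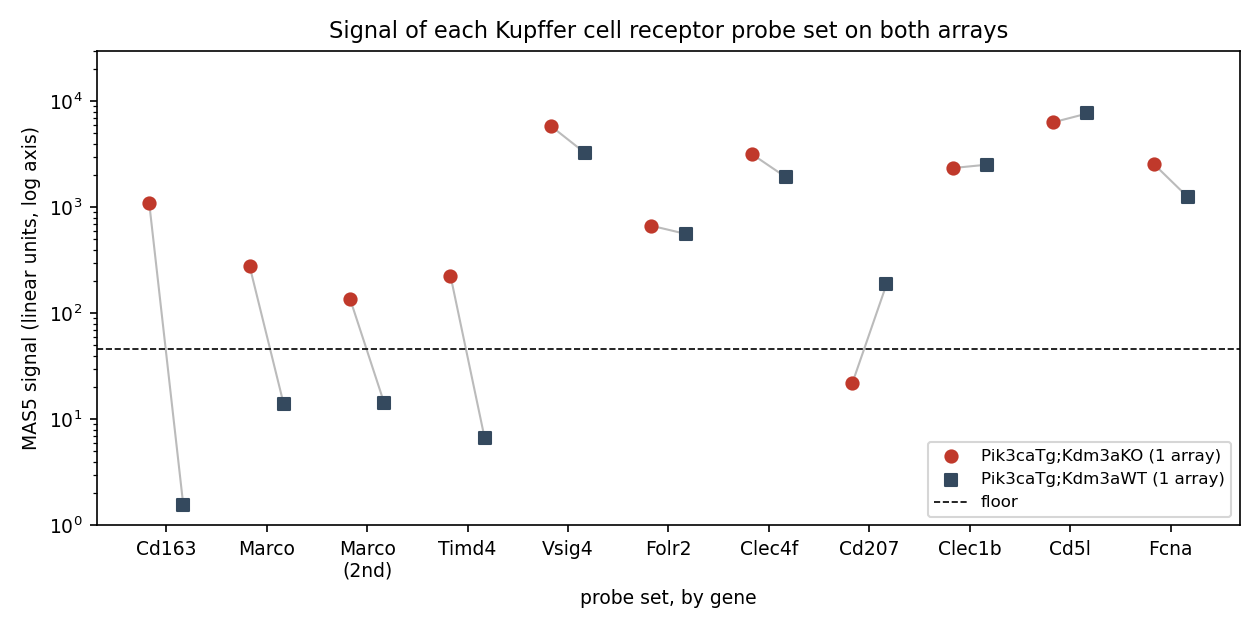
MAS5 signal (linear units on a log axis) of each of the 11 probe sets in the Pik3caTg;Kdm3aKO array (circles) and the Pik3caTg;Kdm3aWT array (squares), 1 array each, with the second probe set of Marco marked 2nd. The dashed line is the floor of 46.5. Cd163, both Marco probe sets and Timd4 cross it in one direction and Cd207 in the other, and the remaining 6 genes lie above it on both arrays.

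The scavenger receptor Cd163, which takes up complexes of haemoglobin and haptoglobin, had a signal of 1110 in the knockout array and 1.55 in the wild-type array (probe set 1419144_at). The wild-type value lies far below the floor, where MAS5 signals have no meaningful order, so the difference is given as a bound, at least 23.9-fold higher with a log2 ratio of at least 4.58. With bounds counted at their value, 0 of the 11693 genes had a higher ratio at this floor, and 4 did with the floor at the 60th percentile, namely Ighm, Mup10, Serpina4-ps1 and Slc15a2. The size of this bound depends on the floor: a floor at the 60th percentile gave 8.68-fold, and the unfloored ratio was 716. Under each floor tried the knockout signal lay above it and the wild-type signal below it.

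Marco, a class A scavenger receptor with a collagen-like stalk that binds bacteria and particles, was read by 2 probe sets. The first (1449498_at) had a signal of 279.3 in the knockout array and 13.9 in the wild-type array, at least 6.01-fold higher. The second (1458297_s_at) had 137.0 in the knockout array and 14.2 in the wild-type array, at least 2.95-fold higher. Both probe sets thus placed the gene above the floor in the knockout array and below it in the wild-type array. The second ended in _s_at, a name given to probe sets that can match more than 1 transcript. Marco is the single member with a repeat measurement on the array.

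Timd4, which encodes TIM-4, a receptor for phosphatidylserine on dying cells and a marker of long-resident Kupffer cells, had a signal of 226.1 in the knockout array and 6.65 in the wild-type array (1455318_at). Its knockout signal was at least 4.86-fold higher. With the floor at the 60th percentile the bound shrank to 1.77-fold, below the 2-fold size, and those of the Marco probe sets to 2.18-fold and 1.07-fold.

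The bases before the transcription start are shown for Cd163, Marco and Timd4, the 3 genes listed for signal in the knockout array alone. That shared pattern was the rule of their selection and supports nothing. Each line gives the 250 bases upstream of the start, 5′ to 3′ on the strand of the gene, from RefSeq with assembly GRCm38.p6, and capitals mark matches to the motifs searched.
Cd163 (chr6:124304401-124304650, plus strand): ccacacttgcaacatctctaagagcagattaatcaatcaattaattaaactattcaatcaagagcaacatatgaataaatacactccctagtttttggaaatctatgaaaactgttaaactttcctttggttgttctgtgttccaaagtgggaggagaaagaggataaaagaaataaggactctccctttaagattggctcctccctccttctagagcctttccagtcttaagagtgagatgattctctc
Marco (chr1:120505025-120505274, minus strand): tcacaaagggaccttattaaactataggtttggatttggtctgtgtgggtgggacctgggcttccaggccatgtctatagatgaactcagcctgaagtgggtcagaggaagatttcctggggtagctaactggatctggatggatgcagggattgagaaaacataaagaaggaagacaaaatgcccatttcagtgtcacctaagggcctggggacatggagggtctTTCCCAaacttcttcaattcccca
Timd4 (chr11:46810549-46810798, plus strand): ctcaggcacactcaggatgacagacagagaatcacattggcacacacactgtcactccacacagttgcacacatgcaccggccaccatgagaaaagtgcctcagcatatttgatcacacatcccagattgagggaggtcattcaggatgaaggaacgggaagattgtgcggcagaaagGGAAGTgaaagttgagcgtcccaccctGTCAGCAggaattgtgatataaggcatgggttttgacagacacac
The motifs were the core GGAAGT of PU.1, a factor of all macrophages, the MAF site TGCTGAC, the RBPJ core TGGGAA and the AP-1 site TGANTCA, all on both strands, and the TATA box TATAAA on the strand of the gene. The window of Timd4 held GGAAGT and, on the other strand, TGCTGAC. The window of Marco held TGGGAA on the other strand, and that of Cd163 held none of the motifs. Of all 32851 promoter windows of the same length in the table, 19.7% held GGAAGT, 3.81% held TGCTGAC, 21.6% held TGGGAA, 6.75% held TGANTCA and 7.59% held TATAAA. A match is a description of letters and not a binding site.

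The other uptake receptors were present on both arrays. Vsig4, the complement receptor CRIg that captures opsonised microbes from the blood, had a signal of 5838 in the knockout array and 3254 in the wild-type array (1451651_at), 1.79-fold higher. It lay just under the 2-fold size, and scaling the arrays on their poly-A controls brought it to 2.04-fold. Folr2, the folate receptor beta of tissue-resident macrophages, had 670.4 in the knockout array and 561.8 in the wild-type array (1451648_a_at), 1.19-fold higher. In bulk liver a difference in the number of Kupffer cells and a difference in RNA per cell cannot be told apart, which holds for each gene described here.

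The 3 C-type lectins differed from each other. Clec4f, a glycan-binding lectin that in the mouse is made almost solely by Kupffer cells, had a signal of 3181 in the knockout array and 1921 in the wild-type array (1449905_at), 1.66-fold higher. Clec1b, which encodes the podoplanin receptor CLEC-2 of platelets and Kupffer cells, had 2347 in the knockout array and 2526 in the wild-type array (1421182_at), a log2 ratio of -0.11. The sign for Clec1b turned to 0.08 with scaling on the poly-A controls, so no direction is given. Cd207, which encodes langerin, an endocytic lectin best known from Langerhans cells of the skin, had 21.9 in the knockout array and 187.2 in the wild-type array (1425243_at). Its knockout signal was at least 4.02-fold lower, with a log2 ratio of -2.01, or -0.55 once the floor was set at the 60th percentile.

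Clec4f and Cd207 are direct neighbours among the genes with a probe set on the array and lie on chromosome 6, as do Cd163, Clec1b and Kdm3a. Because these adjacent genes stood on opposite sides, with Clec4f at 0.73 and Cd207 at -2.01 in log2 ratio, their upstream windows are shown in the same form.
Clec4f (chr6:83656117-83656366, minus strand): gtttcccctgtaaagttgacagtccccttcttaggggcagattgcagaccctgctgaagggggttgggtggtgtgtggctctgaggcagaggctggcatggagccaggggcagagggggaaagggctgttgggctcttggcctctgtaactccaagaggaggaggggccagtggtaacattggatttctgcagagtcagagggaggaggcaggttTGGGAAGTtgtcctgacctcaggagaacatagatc
Cd207 (chr6:83677858-83678107, minus strand): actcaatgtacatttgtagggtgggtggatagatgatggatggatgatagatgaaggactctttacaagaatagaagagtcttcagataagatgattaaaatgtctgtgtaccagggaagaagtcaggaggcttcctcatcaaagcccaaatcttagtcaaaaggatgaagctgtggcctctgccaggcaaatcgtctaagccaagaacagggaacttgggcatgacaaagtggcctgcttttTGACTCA
The window of Clec4f held overlapping matches to TGGGAA and GGAAGT, which share the bases between positions 33 and 30 before the start. The window of Cd207 held an AP-1 match, TGACTCA, in the last 7 bases before the start. Among the windows of the other members, AP-1 letters were found before 1 of the 2 starts of Folr2. GGAAGT was found before Vsig4, Fcna and the other Folr2 start, TGCTGAC and TGGGAA also before Fcna, and TATAAA before Clec1b.

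The secreted proteins were present on both arrays as well. Fcna, which encodes ficolin A, a lectin that starts the lectin pathway of complement, had a signal of 2569 in the knockout array and 1248 in the wild-type array (1418243_at), 2.06-fold higher. It was the member just inside the 2-fold size, and its log2 ratio of 1.04 became 0.91 with scaling on the hybridisation controls and 0.95 with scaling on array medians. Cd5l, which encodes AIM, a scavenger-receptor-like protein secreted by macrophages, had 6341 in the knockout array and 7684 in the wild-type array (1449193_at), a log2 ratio of -0.28. The 6 genes above the floor on both arrays therefore spanned log2 ratios from -0.28 for Cd5l to 1.04 for Fcna. The ratios of Folr2, Clec1b and Cd5l were smaller in size than 0.446, the pooled SD among probe sets of the same gene (4958 genes). The median of these SDs was 0.256, which the ratio of Cd5l exceeded in size. Either SD measures disagreement between probe sets and not between animals.

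**Figure D2:**
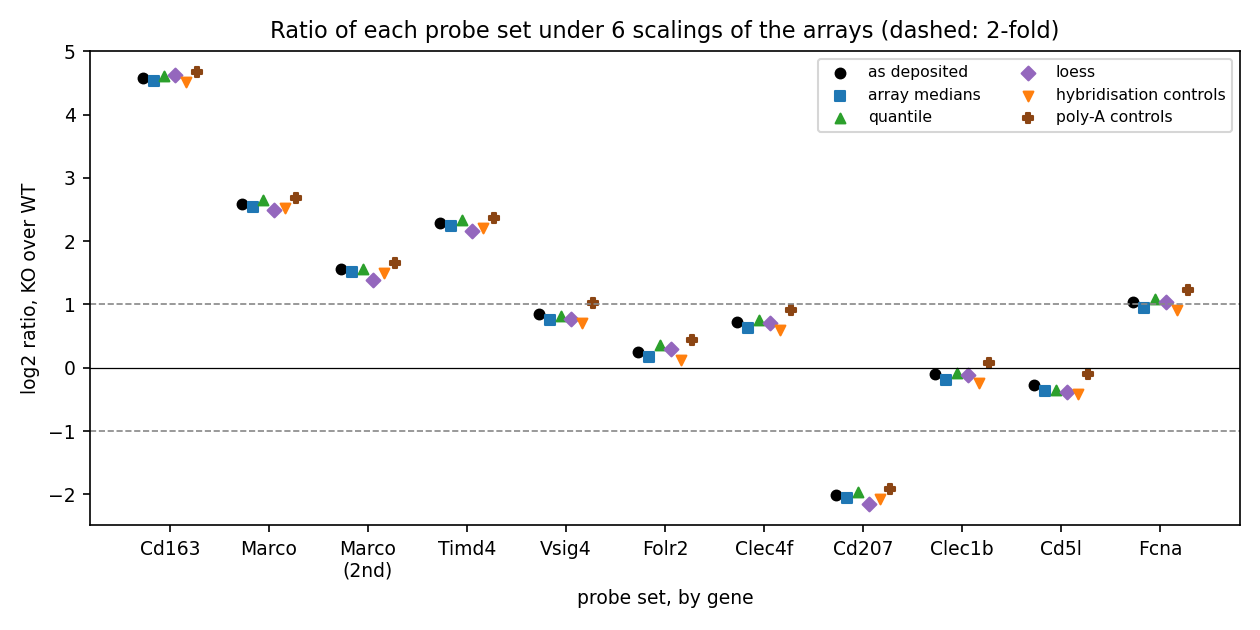
Log2 ratio of knockout over wild type for each of the 11 probe sets, with the arrays as deposited and under 5 other scalings, with values below the floor raised to it. Dashed lines mark 2-fold. Symbols of 1 probe set lie close together: Cd163 stays between 4.51 and 4.67 and Cd207 between -2.15 and -1.92, while Fcna and Vsig4 cross the 2-fold line and Clec1b crosses 0.

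Across the whole set, the median log2 ratio of the 10 genes was 0.79, against -0.02 over all genes compared. A positive ratio was found for 7 of the 10 and for 5592 of all 11693 genes. The 7 included Cd163, Marco and Timd4, which were chosen for this direction. The 6 genes measured on both arrays had a median of 0.49, the same as that of the 13 hepatocyte markers, so a shift of this size was not particular to Kupffer cell genes. The part of hepatocyte RNA content in the receptor ratios was not tested. These medians are descriptions of a list assembled with its values partly known. Scaling on the poly-A controls moved the median of all genes by 0.19 and scaling on the hybridisation controls moved it by -0.14, and the members moved with them.

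**Figure D3:**
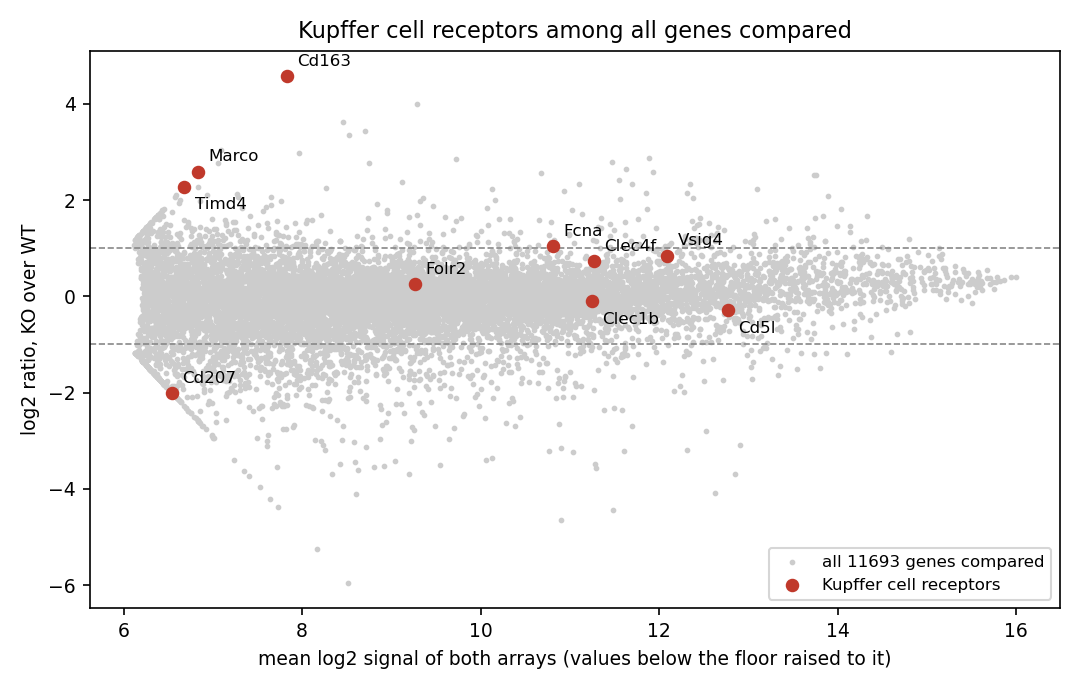
Log2 ratio of knockout over wild type against mean log2 signal of both arrays for all 11693 genes compared (grey) and the 10 Kupffer cell receptor genes (red, named). Dashed lines mark 2-fold. Cd163 has the highest ratio at this floor, with 4 genes above it when the floor is at the 60th percentile, Cd207 lies on the lower edge that the floor makes, and the 6 genes found on both arrays lie between -0.28 and 1.04.

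Genes that every macrophage expresses went the other way. Among 19 measured pan-macrophage genes, the knockout signal was at least 2-fold lower for 15 and higher for 0, with a median log2 ratio of -1.21. The lower genes were Cd68, Fcgr1, Cybb, Cd74, Laptm5, C1qb, Tyrobp, Fcgr3, Lyz2, Ptprc, Aif1, Fcer1g, C1qa, Mpeg1 and Ctss, and their ratios lay between -2.11 for Cd68 and -1.08 for Ctss. Other kept probe sets stood at 0.27 for Laptm5, -0.43 for Fcgr1 and -0.81 for Cybb. Fcgr2b, the highest of the 19 at -0.30, had another kept probe set at 0.38, and Csf1r had another at -0.25. Csf1r, the receptor for the growth factor that keeps macrophages alive, had 8457 in the knockout array and 11474 in the wild-type array, or -0.44 in log2 ratio. Adgre1, which encodes the classic mouse macrophage surface antigen, had 1124 in the knockout array and 1657 in the wild-type array. The summed signal of the 19 genes was 43688 in the knockout array and 89589 in the wild-type array. With 1 probe set per gene, all 19 had lower log2 ratios than each of the 6 receptor genes measured on both arrays. Of these 6, Cd5l was the lowest at -0.28, and another probe set each of Fcgr2b, Laptm5 and Csf1r lay above it. With quantile normalization, loess or the mean of all probe sets of a gene, 18 of the 19 were lower than all 6. Cd207, below the floor in the knockout array, had a bound of -2.01, within the range of the 19 genes.

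The distance between the sets does not depend on how the arrays are scaled against each other by a single factor. The median of the 10 receptor genes exceeded the pan-macrophage median by 1.99 on the log2 scale. Under the other scalings, floors, filters and choices of probe set it did so by 1.91 to 2.07. This distance takes in Cd163, Marco and Timd4, which were chosen for a signal in the knockout array alone, so it supports nothing. For the 6 genes measured on both arrays, which leave out Cd207 as well, the distance was 1.70. Neither distance was tested, since 1 array per genotype leaves no spread to test it against.

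Recruited and lipid-associated macrophage genes were lower alongside the pan-macrophage genes. Of 13 genes, the knockout signal was at least 2-fold lower for 12 and higher for 0, and the median was -2.10. The lower genes were Gpnmb, Mmp12, Lgals3, Ccl2, Trem2, Cx3cr1, Cd9, Ccr2, Fabp5, Itgax, Ms4a7 and S100a4. Ccl2 and S100a4 were below the floor in the knockout array. Their summed signal over the 13 genes was 8592 in the knockout array and 32114 in the wild-type array. The part of these cells in the lower pan-macrophage signal was not tested. Of 5 measured monocyte and neutrophil genes, Chil3, S100a9, S100a8 and Plac8 were at least 2-fold lower, and the median was -1.73. The remaining gene, Csf3r, stood at 0.52. Among list genes that missed the filter, Elane stood at 1.11, a bound with the wild-type value below the floor, and Mpo at -0.44.

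**Figure D4:**
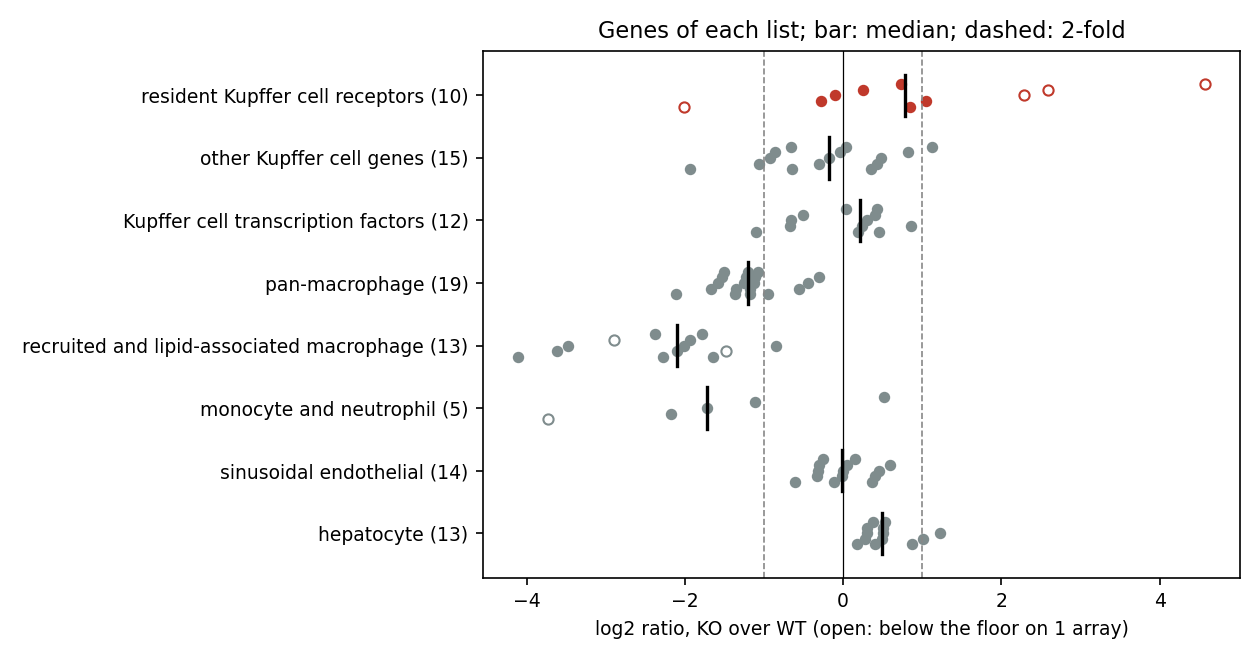
Log2 ratio of knockout over wild type for the measured genes of 8 lists (number in brackets), 1 point per gene, with open points for genes below the floor on 1 array. Bars are medians and dashed lines mark 2-fold. The receptor genes have a median of 0.79, pan-macrophage genes -1.21, recruited and lipid-associated genes -2.10 and sinusoidal endothelial genes -0.01.

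Other genes known from Kupffer cells lay between these groups. Among 15 measured genes, 1 was higher by 2-fold or more, 2 were lower and 12 lay within 2-fold, with a median of -0.18. The higher gene was the complement component C6, at 1598 in the knockout array and 731.0 in the wild-type array, which hepatocytes also make. The lower genes were Lyz1 at -1.06, whose near-identical relative Lyz2 the same probes could read, and Gfra2, a receptor of glial growth factors, at -1.94. Slc40a1, the iron exporter ferroportin, was at 13026 in the knockout array and 10223 in the wild-type array. Spic, a transcription factor of iron-recycling macrophages, was at 184.3 in the knockout array and 137.2 in the wild-type array.

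Of 12 measured transcription factors of Kupffer cells, 11 lay within 2-fold, and the median was 0.21. Spi1, which encodes PU.1, missed the filter. It had 45.1 in the knockout array, below the floor, and 98.3 in the wild-type array, a bound of -1.08. Nr1h3, which encodes the sterol receptor LXR alpha that Kupffer cells need for Clec4f, was at 1398 in the knockout array and 1057 in the wild-type array, a log2 ratio of 0.40. Id3, a factor required for Kupffer cell development, was at 1593 in the knockout array and 1399 in the wild-type array. Irf8, a factor of the monocyte line, was the gene past 2-fold, at 224.8 in the knockout array and 480.3 in the wild-type array. The highest ratio was that of Runx1 at 0.86, though its other kept probe set stood at -0.57. Among 15 measured niche signals and their receptors, Dll1, a Notch ligand, was higher at 1.06, the macrophage growth factor Csf1 was lower at -1.17, and the median was -0.32.

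Ligands and partners of the receptors showed no gene at least 2-fold higher among 21 measured, and 5 were lower, with a median of -0.23. The ligand of CD163, haptoglobin (Hp), was at 42641 in the knockout array and 36764 in the wild-type array, and haem oxygenase (Hmox1), which degrades the haem it takes in, was at 374.6 in the knockout array and 424.8 in the wild-type array. Masp2, a protease that acts with ficolins, was the highest of the list at 0.96, and its other kept probe set stood just past 2-fold at 1.01. Of the 3 listed bridging proteins that, like TIM-4, tie dying cells to macrophages, Mfge8 at -1.70 and Gas6 at -1.29 were at least 2-fold lower and Pros1 stood at -0.17. The other lower genes were C3ar1 at -1.59, Cd36 at -1.12 and Folr1 at -1.02.

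Other receptors of the same families went both ways. Of 14 other scavenger receptors measured, 1 was at least 2-fold higher, Scara5 at 1.12, and 5 were lower, namely Scara3 at -2.15, Cd68 at -2.11, Cxcl16 at -1.96, Msr1 at -1.51 and Cd36. Msr1, a class A scavenger receptor like Marco, had 521.8 in the knockout array and 1491 in the wild-type array, and its 4 probe sets ranged from -2.79 to -1.44. Of 13 other C-type lectins, 2 were higher, Clec2d at 1.41 and Clec2h at 2.24, a bound with the wild-type value below the floor. The 4 lower ones were Clec7a, which encodes the fungal receptor dectin-1, at -2.33, Clec4b1 and Clec4a2, both at -1.54, and Clec4a3 at -1.45. The probe sets of Clec4a2 went both ways, up to 0.21.

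Markers of other cells that carry some of the receptors were measured beside them. Of 14 sinusoidal endothelial genes, 14 lay within 2-fold, with a median of -0.01 and summed signals of 17762 in the knockout array and 17809 in the wild-type array. Among platelet genes, which bear on Clec1b, Gp9 and Gp6 were below the floor on both arrays, Pf4 was lower at -1.75 and the other 4 of 5 measured lay within 2-fold. Among dendritic cell genes, which bear on Cd207, Flt3, Xcr1 and Ccr7 were below the floor on both arrays. Of 5 measured, Epcam, also a bile duct gene, was lower at -1.75, with its other probe set at -0.08. The other 4 lay within 2-fold, from Cd209a at -0.77 to Zbtb46 at 0.61. Among genes of peritoneal and marginal zone macrophages, which also carry Timd4 or Marco, Cd209b was below the floor on both arrays. Cxcl13, a B cell chemokine, was higher at 321.9 in the knockout array and 74.2 in the wild-type array, while the other 6 of 7 measured lay within 2-fold, Gata6 at -0.06. Of 4 measured B cell genes, Ighm was higher at 3.44, with probe sets from 0.19 to 3.44, and Jchain at 1.99. Ms4a1 stood at 0.18 and Cd79b at -0.63. Among B cell genes that missed the filter, Cd79a and Cr2 were below the floor on both arrays and Pax5 stood at -0.67. The part of these cells in the signals of Marco, Timd4 and Cd163 was not tested.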

How the data were processed

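Total RNA of mouse liver was labelled as biotinylated cRNA from 250 ng, per the labels' protocols. The authors deposited linear intensity values per probe set, made with MAS5 per the submitters' processing notes. Both deposited columns had a mean of 500.004 once 2% was trimmed at each end, so the arrays had been scaled to 1 level. The settings, detection calls and genome build are not stated in the sources used here.

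Genes were named through the platform annotation, which gave 34945 of the 45101 probe sets 1 gene, 932 several genes and 9160 none in the annotation used here, and 64 are controls. RefSeq tables (GRCm38.p6) held 34741 of these identifiers, all 10 members included, and served for current symbols, neighbours and promoter sequences. The floor and the filter on mean signal were computed without controls. A gene took its probe set of highest mean signal. The computations used Python 3.11.15 with pandas 2.3.3 and statsmodels 0.14.6 and were tested on simulated data. Members and lists were chosen with earlier results of these data known, and the lists were written from general knowledge. The genes named were all members, list genes past 2-fold, list extremes and the 3 genes of most similar signal to 4 members. Other genes given with values were picked for their known roles after the values were seen. Alternatives were 5 scalings, 3 floors, 2 filters, 2 rules for genes with several probe sets, leaving out probe sets with cross-matching names, and sizes of 1.5-fold and 3-fold. The number of arrays, 2, limits the precision.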

Additional observations from a re-analysis of the deposited data

How the results depend on the processing

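Of 88 single probe-set ratios under 8 scalings and floors, 73 moved by less than 0.446, the SD between probe sets of 1 gene, 15 moved by more and 0 of the differences past 2-fold changed sign. The 15 were the bounds of Cd163, Marco, Timd4 and Cd207 under the 3 other floors, which follows from how a bound is built. With the filter at the 70th percentile of mean signal 7 members were left, since Marco, Timd4 and Cd207 no longer passed. Of these 7, 2 were higher and 0 lower, against 2.56% higher and 6.88% lower of the 8199 genes left. Cd163, among the 2 higher, was chosen for a signal in the knockout array alone. Over all genes, 707 were higher and 775 lower with the poly-A controls, against 448 and 1048 as deposited, 250 and 702 with the floor at the 60th percentile and 210 and 564 with the filter at the 70th. With the floor at the 60th percentile 0 members were at least 2-fold lower, against 6.0% of all genes compared. Scaling on the poly-A controls gave the members a median of 0.97. That of other Kupffer cell genes was -0.062 with quantile normalization, -0.31 with the hybridisation controls, 0.0026 with the poly-A controls, and -0.039 both with the floor at the 60th percentile and with the mean of all kept probe sets. The pan-macrophage median was -1.34 with the hybridisation controls and -1.02 with the poly-A controls, where 10 of 19 genes were at least 2-fold lower. The recruited and lipid-associated median was -2.23 with the hybridisation controls, -1.92 with the poly-A controls and -1.74 with the floor at the 60th percentile. The cause of the shifts with scaling was not tested. The other alternatives left counts within 1.5 times and medians within the pooled probe-set SD scaled to a list of that size. No paired analysis was possible because each genotype has 1 array. Signals near the floor limit Marco, Timd4 and Cd207 most.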

Other observations

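Genes beside the members on the chromosomes were set against them. The nearest 2 named genes with a probe set on each side of the 10 members came to 38 genes, of which 17 were no members and passed the filter. Of the 17, 0 were higher by 2-fold or more, 4 were lower, and the median log2 ratio was -0.54. Around Cd163, Vmn2r26 stood at 0.66 near the floor, and the other 3 neighbours were below the floor on both arrays. Around Timd4, Timd2, a gene of the same family, was at 3812 in the knockout array and 2142 in the wild-type array, a log2 ratio of 0.83, and Trim41 stood at 0.05. Around Vsig4, the membrane-cytoskeleton linker Msn was lower at -1.56 and the iron oxidase Heph at -1.75, a bound. Clec7a, close to Clec1b, was lower at -2.33, and Folr1, next to Folr2, at -1.02.

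The 3 genes whose signals over the 2 arrays were nearest to those of 4 members were looked up, with distance measured in log2 signal. No gene came within 1 of Cd163, and the nearest was the peptide transporter Slc15a2 at a distance of 1.12, with 1236 in the knockout array and 100.5 in the wild-type array, followed by Fmr1nb and Mup10. Nearest to Marco were Tex12 at 0.04, its wild-type value also raised to the floor, Dennd6b and Cdc42bpb. Nearest to Clec4f were Mccc1, Tlcd2 and Arhgef26, and nearest to Vsig4 were Pcmtd1, Gfra1 and Apol7a. With 2 arrays many genes share a ratio, and 58 genes lay within 0.25 of Clec4f.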
